A study of Oryza sativa with 6 samples.

Results

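The 100 loci with the highest mean RPKM over 6 rice panicle libraries were taken from 46732 rows of the deposited table. RPKM is the number of reads on a gene model scaled to its length and to the library total, so levels of long and short models can be compared. The libraries come from young panicles of 8 to 10 cm of a pair of near-isogenic lines of rice (Oryza sativa), 3 from NIL-qigl1HD385 and 3 from NIL-qIGL1NIP, named in the labels for HD385 and NIP and for qIGL1, a locus for grain length. Both lines are labelled wild type, both were sampled at the same panicle length, and the labels give no treatment, age or plant number for either. Nothing in the labels ties a library to a plant of its own; the p-values therefore reflect library-to-library spread that could be technical. The members were chosen by their level, so levels and ranks are a description without a test. The difference between the lines was tested, but it is not wholly separate from the choice. The mean runs over both lines, and a locus can reach the list through the line in which it is higher: for 20 of the 100 the mean of one line, NIL-qigl1HD385 in 13 and NIL-qIGL1NIP in 7, was below the level of the last locus of the list.

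The young panicle is the developing inflorescence, in which branches bear spikelets and the hulls, stamens and pistil form inside them. Growth of the spikelet hull sets the space in which the grain later fills, which makes this stage relevant to grain size. In most tissues a small number of genes, commonly those for ribosomal proteins, histones, translation factors and small secreted or metal-binding proteins, supplies a large part of the mRNA pool. Which of these classes the 100 loci belong to is not given here. Of 46732 identifiers, 0 matched the RefSeq gene table used here, so each locus goes by its identifier, no function is assigned, and the tissue label could not be checked against marker genes. An identifier such as LOC_Os05g13940 gives the chromosome (5) and a locus number that follows the order along it.

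Library totals recovered from the RPKM values lay between 43536754 and 52466060 reads. Among the 100 loci a library had a median of 38524 reads per locus, a counting error of 0.0074 on the log2 scale, and the median spread between libraries of a line was 0.22. Counting error was thus a small part of the spread at this depth. NIL-qigl1HD385 replicate 2 and NIL-qIGL1NIP replicate 3 stood apart from the other 4 libraries. For the 100 loci, the median distance of a library from the median of the other 5 was 0.41 and 0.37 on the log2 scale in these libraries, and 0.11 to 0.21 in the other 4. Several results are also given without one of them.

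The 100 loci held a sizeable share of the panicle mRNA, with 16.3, 18.1 and 16.7% of the summed RPKM in NIL-qigl1HD385 replicates 1, 2 and 3, and 16.1, 16.5 and 17.1% in NIL-qIGL1NIP. The means were 17.0 ± 0.91% in NIL-qigl1HD385 and 16.5 ± 0.50% in NIL-qIGL1NIP (SD, n = 3 each), and the lines overlapped. Without the first locus the means were 15.5 ± 0.60% in NIL-qigl1HD385 and 15.6 ± 0.62% in NIL-qIGL1NIP. Within the 100, the levels were uneven. The first locus had a mean of 6446 RPKM, 15.4 times that of the last, and 21 loci lay at 1000 RPKM or more. In contrast, the levels near the lower limit were packed closely: LOC_Os03g55776, LOC_Os02g48660 and LOC_Os02g03860, the last 3 inside it, had means of 421, 419 and 418 RPKM, and LOC_Os07g41694, LOC_Os05g02070 and LOC_Os01g04350, the first 3 outside it, had 417, 416 and 415 RPKM.

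**Figure D1:**
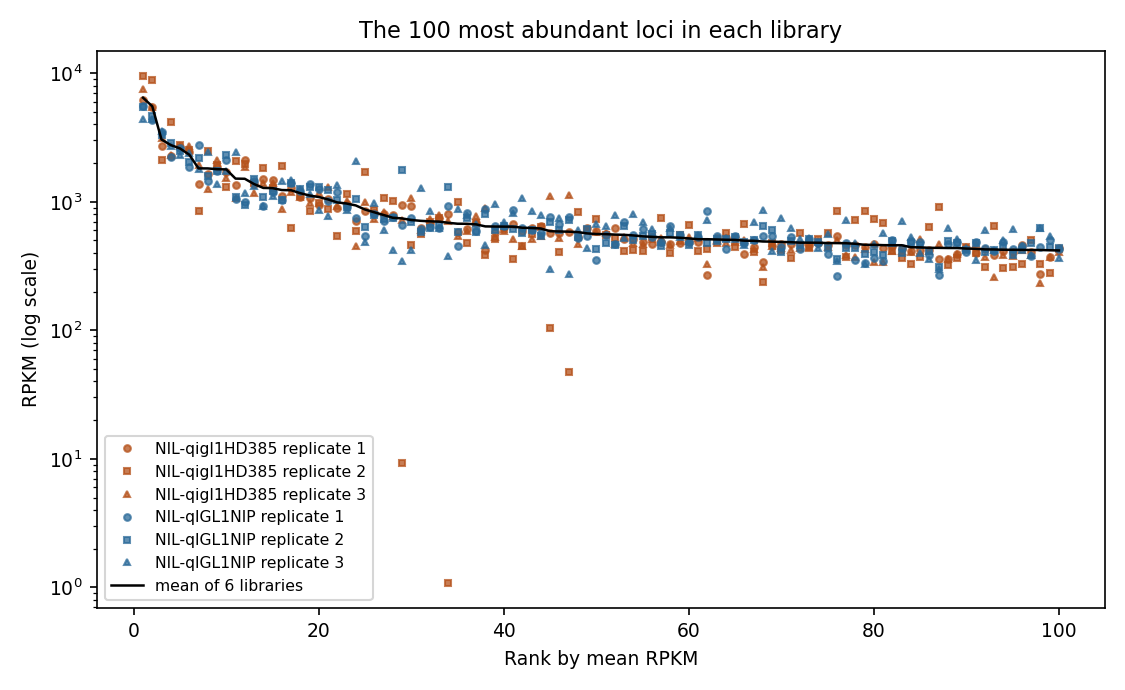
RPKM on a log axis of the 100 most abundant loci in each library, against their rank by mean RPKM. Colours mark the lines, symbols the replicates, and the black line the mean of the 6 libraries. The 4 squares far below the line, from 1.09 to 105 RPKM, are NIL-qigl1HD385 replicate 2.

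The same 2 loci led every library. LOC_Os05g13940 had 6194, 9502 and 7603 RPKM in NIL-qigl1HD385 replicates 1, 2 and 3, and 5579, 5416 and 4385 RPKM in NIL-qIGL1NIP. LOC_Os11g06720 had 5463, 8889 and 5448 RPKM in NIL-qigl1HD385 and 4303, 4644 and 4429 RPKM in NIL-qIGL1NIP. All 3 NIL-qigl1HD385 libraries lay above all 3 NIL-qIGL1NIP libraries at both loci, and replicate 2 of NIL-qigl1HD385 was the highest library at both. The first alone supplied 1.19 to 1.83% of the summed RPKM in NIL-qigl1HD385 and 0.834 to 1.05% in NIL-qIGL1NIP. The difference of LOC_Os05g13940 was 0.59 on the log2 scale (SE 0.27, adjusted p = 0.33 in limma), and that of LOC_Os11g06720 was 0.53 (SE 0.28, adjusted p = 0.38 in limma). Neither passed the test. Under quantile normalization, which forces all libraries to the same set of values, the differences were 0.076 for LOC_Os05g13940 and -0.076 for LOC_Os11g06720. Since these loci held the first 2 places in every library, those values reflect only their exchange of places in NIL-qIGL1NIP replicate 3. They say nothing about the size of the difference. Without NIL-qigl1HD385 replicate 2 they were 0.43 for LOC_Os05g13940 and 0.29 for LOC_Os11g06720.

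The next 8 loci had mean levels between 1785 and 3049 RPKM. LOC_Os09g31080 had 2737, 2115 and 3117 RPKM in NIL-qigl1HD385 and 3469, 3313 and 3543 RPKM in NIL-qIGL1NIP. LOC_Os07g02340 had 1705, 1308 and 1525 RPKM in NIL-qigl1HD385 and 2104, 2326 and 1741 RPKM in NIL-qIGL1NIP. At both, every NIL-qigl1HD385 library lay below every NIL-qIGL1NIP library, with replicate 2 of NIL-qigl1HD385 lowest. LOC_Os06g51220 had 2662, 2781 and 2730.3 RPKM in NIL-qigl1HD385 and 2609, 2499 and 2311 RPKM in NIL-qIGL1NIP. LOC_Os12g43600 had 2448, 2520.1 and 2720.5 RPKM in NIL-qigl1HD385 and 1857, 2025 and 2374 RPKM in NIL-qIGL1NIP. LOC_Os03g46770 had 1859, 1948 and 2125 RPKM in NIL-qigl1HD385 and 1736, 1719.8 and 1362 RPKM in NIL-qIGL1NIP. At these 3 loci, every NIL-qigl1HD385 library lay above every NIL-qIGL1NIP library. LOC_Os01g45470 and LOC_Os04g33450 overlapped between the lines. LOC_Os01g45470 had 2254, 4191 and 2306 RPKM in NIL-qigl1HD385 and 2239, 2842 and 2733 RPKM in NIL-qIGL1NIP, so that 1 library stood well above the other 5. LOC_Os04g33450 had 1633, 2494 and 1268 RPKM in NIL-qigl1HD385 and 1457, 1592 and 2457 RPKM in NIL-qIGL1NIP, highest in NIL-qigl1HD385 replicate 2 and NIL-qIGL1NIP replicate 3. LOC_Os04g39150 varied most of the first 10 by rank, with 1373, 844 and 1925 RPKM in NIL-qigl1HD385 and 2772, 2182 and 1813 RPKM in NIL-qIGL1NIP. It held place 29 in NIL-qigl1HD385 replicate 2 and place 4 in NIL-qIGL1NIP replicate 1. None of the first 10 loci passed the test between the lines.

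Ranks of the first few loci were steady, but the largest moves were also in ranks 1 to 50. LOC_Os05g13940 was first in 5 libraries and second in NIL-qIGL1NIP replicate 3, where LOC_Os11g06720 was first. These loci moved by 1 place over the 6 libraries, and LOC_Os01g45470 and LOC_Os12g43600 by 3 places. The median difference between the best and the worst place of a locus was 24.5 places for ranks 1 to 50 and 69 places for ranks 51 to 100, where levels are packed more closely. The widest ranges were those of LOC_Os09g35700 (19483 places), LOC_Os08g43290 (9105 places) and LOC_Os10g05970 (2210.0 places), all in ranks 1 to 50 and all lowest in NIL-qigl1HD385 replicate 2.

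Of the 100 loci, 50 belonged to the 100 highest loci of each of the 6 libraries. A further 22 did so in 5 libraries, 15 in 4 and 13 in 3 or fewer. By library, 91, 72 and 86 of the 100 loci were among the own 100 highest of NIL-qigl1HD385 replicates 1, 2 and 3, and 87, 91 and 80 among those of NIL-qIGL1NIP. With NIL-qigl1HD385 replicate 2 left out, 61 loci were in the own 100 of every library, and with NIL-qIGL1NIP replicate 3 left out, 56. In all, 164 loci appeared in the 100 highest of at least 1 library. LOC_Os04g47310 and LOC_Os02g33820, singled out after their values were seen, reached that list in only 2 libraries. LOC_Os04g47310 had 912 RPKM in NIL-qigl1HD385 replicate 2 (place 23), 360 and 473 RPKM in the other 2 libraries of that line and 268 to 313 RPKM in NIL-qIGL1NIP. LOC_Os02g33820 had 382, 650 and 261 RPKM in NIL-qigl1HD385 and 412, 423 and 424 RPKM in NIL-qIGL1NIP, so its libraries agreed closely in one line and were spread over 2.49-fold in the other.

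The order of the 100 loci was compared between libraries. Spearman correlations over the 100 loci, which are not independent and were chosen for high levels, ranged from 0.63 to 0.90 within NIL-qigl1HD385, from 0.60 to 0.93 within NIL-qIGL1NIP and from 0.40 to 0.83 between lines. The ranges overlapped. The own lists of 100 loci shared 68 to 86 loci between libraries of NIL-qigl1HD385, 76 to 90 between those of NIL-qIGL1NIP and 59 to 86 across lines. Lists drawn from the mean of NIL-qigl1HD385 alone and of NIL-qIGL1NIP alone held 89 and 90 of the 100 loci.

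The same 2 libraries supplied most of the extreme values. NIL-qigl1HD385 replicate 2 was highest for 31 of the 100 loci and lowest for 39, against 19.7 and 31.9% of all 23181 tested loci. NIL-qIGL1NIP replicate 3 was highest for 35 and lowest for 18 of the 100, against 17.7 and 34.8% of all tested loci. For 23 of the 100 loci the lowest value was in the first of these libraries and the highest in the second, a combination found in 8.39% of all tested loci. For 9 of the 100, neither library held an extreme.

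**Figure D2:**
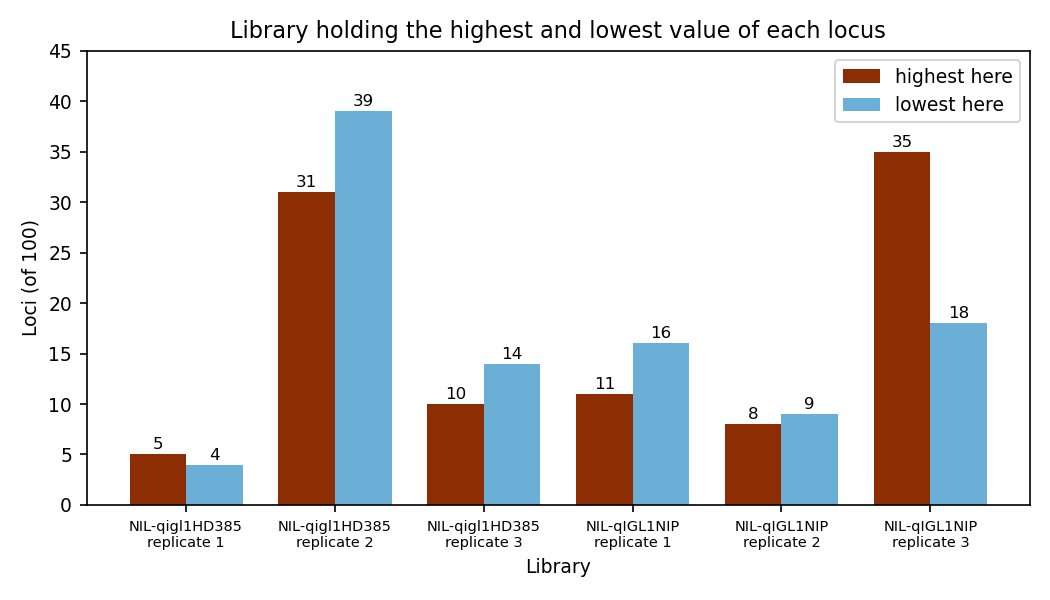
Number of the 100 loci whose highest value (dark bars) and lowest value (light bars) fell in each library. NIL-qigl1HD385 replicate 2 holds 31 highest and 39 lowest values, and NIL-qIGL1NIP replicate 3 holds 35 and 18.

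At 4 of the 100 loci, NIL-qigl1HD385 replicate 2 lay below each of the other 5 libraries, and at least 10-fold below the highest. LOC_Os09g35700 had 810.2, 1.09 and 705 RPKM in NIL-qigl1HD385 replicates 1, 2 and 3, and 931, 1291 and 377 RPKM in NIL-qIGL1NIP. Replicate 2 had 36 reads on it, against 11206 to 41702 reads in the other 5 libraries, and its place there was 19499. LOC_Os08g43290 had 945, 9.32 and 723 RPKM in NIL-qigl1HD385 and 659, 1766 and 348 RPKM in NIL-qIGL1NIP, which is place 9114 in replicate 2 of NIL-qigl1HD385 and place 9 in replicate 2 of NIL-qIGL1NIP. LOC_Os10g05970 had 585, 47.5 and 1119 RPKM in NIL-qigl1HD385 and 768, 715 and 276 RPKM in NIL-qIGL1NIP. LOC_Os10g05990 had 570.5, 105 and 1109 RPKM in NIL-qigl1HD385 and 761, 697 and 298 RPKM in NIL-qIGL1NIP. At all 4, NIL-qIGL1NIP replicate 3 was the lowest of the remaining 5 libraries. These 4 were the only ones of the 100 whose highest library exceeded the lowest by 10-fold or more. The median of that ratio over the 100 loci was 1.73, and it was under 1.5 for 34 of them.

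Line differences are given for 3 of these loci with and without NIL-qigl1HD385 replicate 2. The difference of LOC_Os09g35700 was -2.99 on the log2 scale (SE 2.37, adjusted p = 0.56 in limma) over the 6 libraries and -0.02 (adjusted p = 0.99 in limma) without that library. For LOC_Os08g43290 it was -1.97 (SE 1.77, adjusted p = 0.60 in limma) and 0.16 (adjusted p = 0.94 in limma), and for LOC_Os10g05970 -0.76 (SE 1.16, adjusted p = 0.77 in limma) and 0.60 (adjusted p = 0.69 in limma). Without NIL-qIGL1NIP replicate 3, that of LOC_Os10g05970 was -1.23. Other loci showed the same low value in that library. Of the 9101 loci with a mean of at least 10 RPKM, 38 had a value in NIL-qigl1HD385 replicate 2 more than 10-fold below each of the other 5 libraries, 2 of them among the 100. For each of the other 5 libraries that number was 0 to 2. Over the 38 loci the median level was 0.18 RPKM in that library, 45.7 and 27.5 RPKM in the other libraries of NIL-qigl1HD385, and 40.8, 69.3 and 15.4 RPKM in NIL-qIGL1NIP. In 28 of the 38, NIL-qIGL1NIP replicate 3 was the lowest of the remaining 5. The share of all tested loci for which this held is not given here. The 38 were picked for a low value in NIL-qigl1HD385 replicate 2, so the median there follows from the choice.

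**Figure D3:**
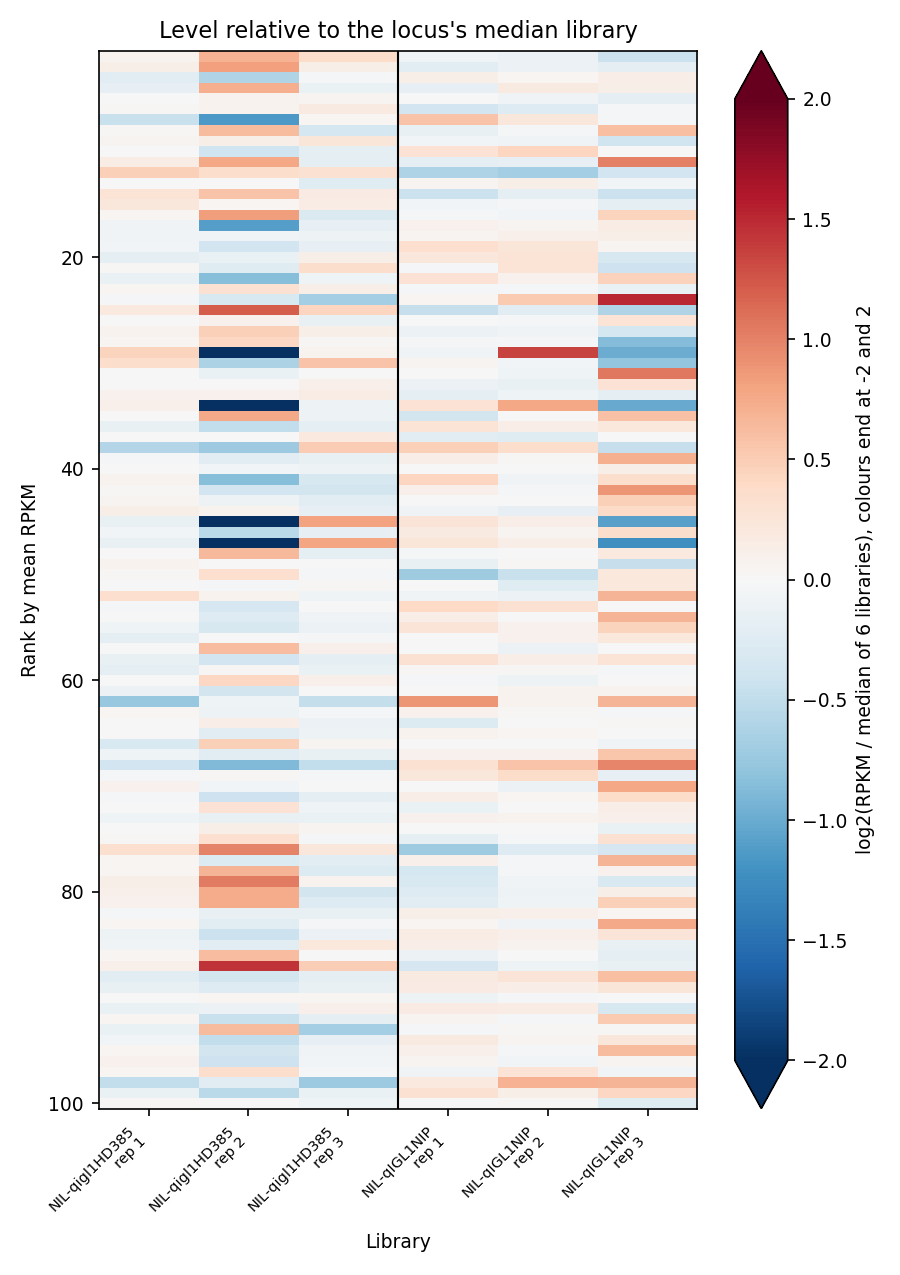
Level of the 100 loci, ordered by rank from top to bottom, in each library, as log2 of RPKM over the median of the 6 libraries. Colours end at -2 and 2. The 4 darkest cells, in NIL-qigl1HD385 replicate 2, are the loci with ranks 29, 34, 45 and 47.

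No locus of the 100 passed the test between the lines. With limma on log2(RPKM + 0.5), fitted and adjusted over 23181 loci, 0 of the 100 had an adjusted p under 0.05, where 0.733% of all tested loci did (0.375% higher and 0.358% lower in NIL-qigl1HD385). The smallest adjusted p among the 100 was 0.072. At an unadjusted p under 0.05 there were 22 of the 100, close to the 17% of all tested loci. In NIL-qigl1HD385, 5 of them had the higher mean and 17 the lower, against 9.79 and 7.2% of all tested loci. limma voom on the recovered reads called 1 of the 100, where it called 0.548% of all tested loci. DESeq2, a count model tried on the same reads and not kept, called a larger share of the 100 than of all loci. Most of those calls were lower in NIL-qigl1HD385. The absence of calls thus depends on the model.

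The test leaves room for moderate differences. The 95% interval of the difference lay within 2-fold in either direction for 73 of the 100 loci, and 78.4% of all tested loci, and reached past it for 27. The median difference of the 100 loci was -0.09 on the log2 scale, against 0.02 over all tested loci, and its median size was 0.30 against 0.20. The median standard error was 0.18 for the 100 loci and 0.17 for all. For 44 of the 100, all 3 libraries of NIL-qigl1HD385 were above, or all below, those of NIL-qIGL1NIP, 18 higher and 26 lower in NIL-qigl1HD385, where this held for 26.5% of all tested loci (16.2% higher, 10.3% lower). It also held for 31 of the next 100 loci and for 35.9% of the 800 after those. It held for 12 of the 20 loci that had one line's mean below the limit, and for 32 of the other 80. Since the choice favours loci that are high in one line, these counts and the median size are a description and no evidence about the list. Without NIL-qigl1HD385 replicate 2 the count was 48 (34% of all tested loci), and without NIL-qIGL1NIP replicate 3 it was 58 (39.9%); without each of the other 4 libraries it was 45 to 57 (32.9 to 37.6%). With fewer libraries, lines are separated more often.

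**Figure D4:**
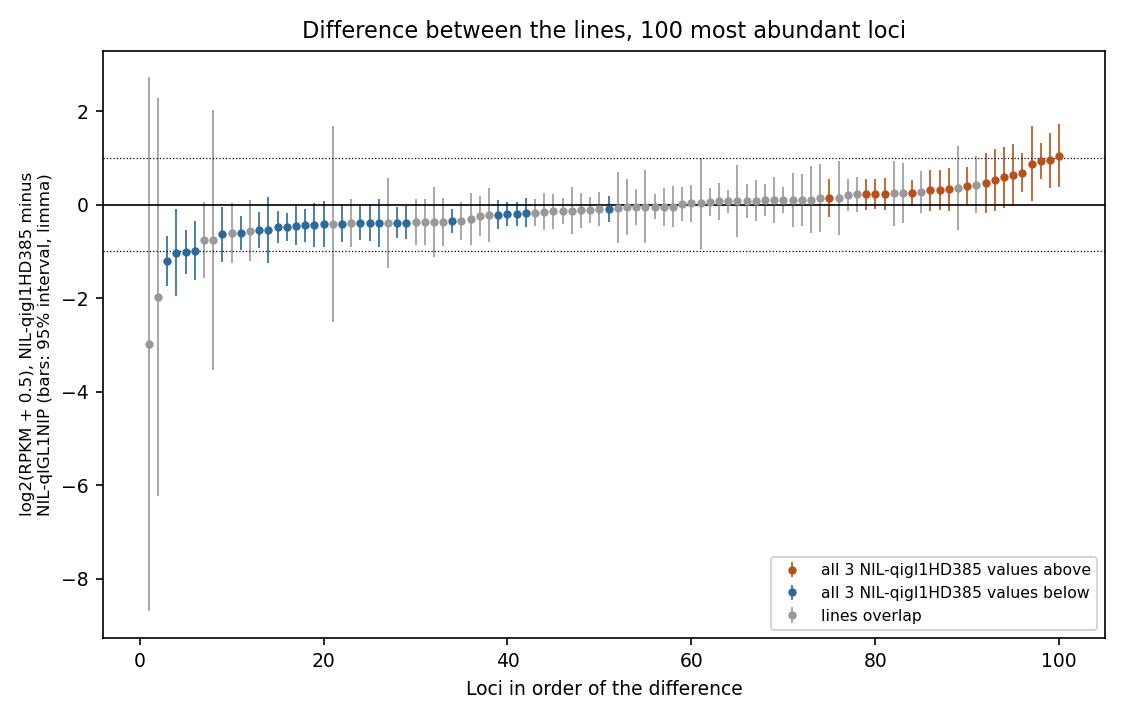
Difference of log2(RPKM + 0.5), NIL-qigl1HD385 minus NIL-qIGL1NIP, for the 100 loci in order of size, with the 95% interval from limma. Colour marks the loci whose 3 values in one line lay all beyond the other line (18 higher, 26 lower), and dotted lines mark 2-fold; the 2 longest intervals are LOC_Os09g35700 and LOC_Os08g43290.

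The loci with the largest separated differences are given as values, since none passed the test. LOC_Os02g41630 had 852, 1710.1 and 1001 RPKM in NIL-qigl1HD385 and 538, 631 and 486 RPKM in NIL-qIGL1NIP. Its difference was 1.05 on the log2 scale (SE 0.28, adjusted p = 0.16 in limma). LOC_Os05g04510 had 539, 855 and 503 RPKM in NIL-qigl1HD385 and 263, 359 and 343 RPKM in NIL-qIGL1NIP, a difference of 0.94 (SE 0.24, adjusted p = 0.15 in limma). At both, replicate 2 of NIL-qigl1HD385 was far above the other 2 libraries of its line. Without it the differences were 0.75 and 0.71.

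In the other direction, LOC_Os07g07040 had 338, 238 and 310.2 RPKM in NIL-qigl1HD385 and 539, 653 and 866 RPKM in NIL-qIGL1NIP. Its difference was -1.20 (SE 0.22, adjusted p = 0.086 in limma), and it held places 139 to 259 in NIL-qigl1HD385 and 28 to 56 in NIL-qIGL1NIP. LOC_Os02g44870 had 709, 591 and 457 RPKM in NIL-qigl1HD385 and 747, 1046 and 2066 RPKM in NIL-qIGL1NIP, a difference of -1.02 (SE 0.39, adjusted p = 0.26 in limma). Its lines nearly touched, and NIL-qIGL1NIP replicate 3 was far above the rest. Without that library the difference was -0.62. The NIL-qigl1HD385 mean of LOC_Os07g07040 and the NIL-qIGL1NIP mean of LOC_Os05g04510 were below the limit of the list, so these loci were in it through their higher line.

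LOC_Os11g47760, singled out after its values were seen, had the smallest adjusted p of the 100. It had 2113, 1952 and 1878 RPKM in NIL-qigl1HD385, with a mean of 1981 ± 120.4 RPKM, and 993, 947 and 1172 RPKM in NIL-qIGL1NIP, with a mean of 1038 ± 119 RPKM (SD, n = 3 each). The libraries of each line lay close together, including the 2 that stood apart at other loci. Its difference was 0.94 (SE 0.16, adjusted p = 0.072 in limma), with a 95% interval of 0.55 to 1.32. It was the 1 locus of the 100 called by limma with a variance prior that does not follow the level (adjusted p = 0.039, where that fit called 0.686% of all tested loci) and by voom (adjusted p = 0.029). Over 16 refits its difference was 0.87 to 1.03, with adjusted p-values of 0.029 to 0.355 in limma. None of the other 4 loci was called in any of these refits.

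**Figure D5:**
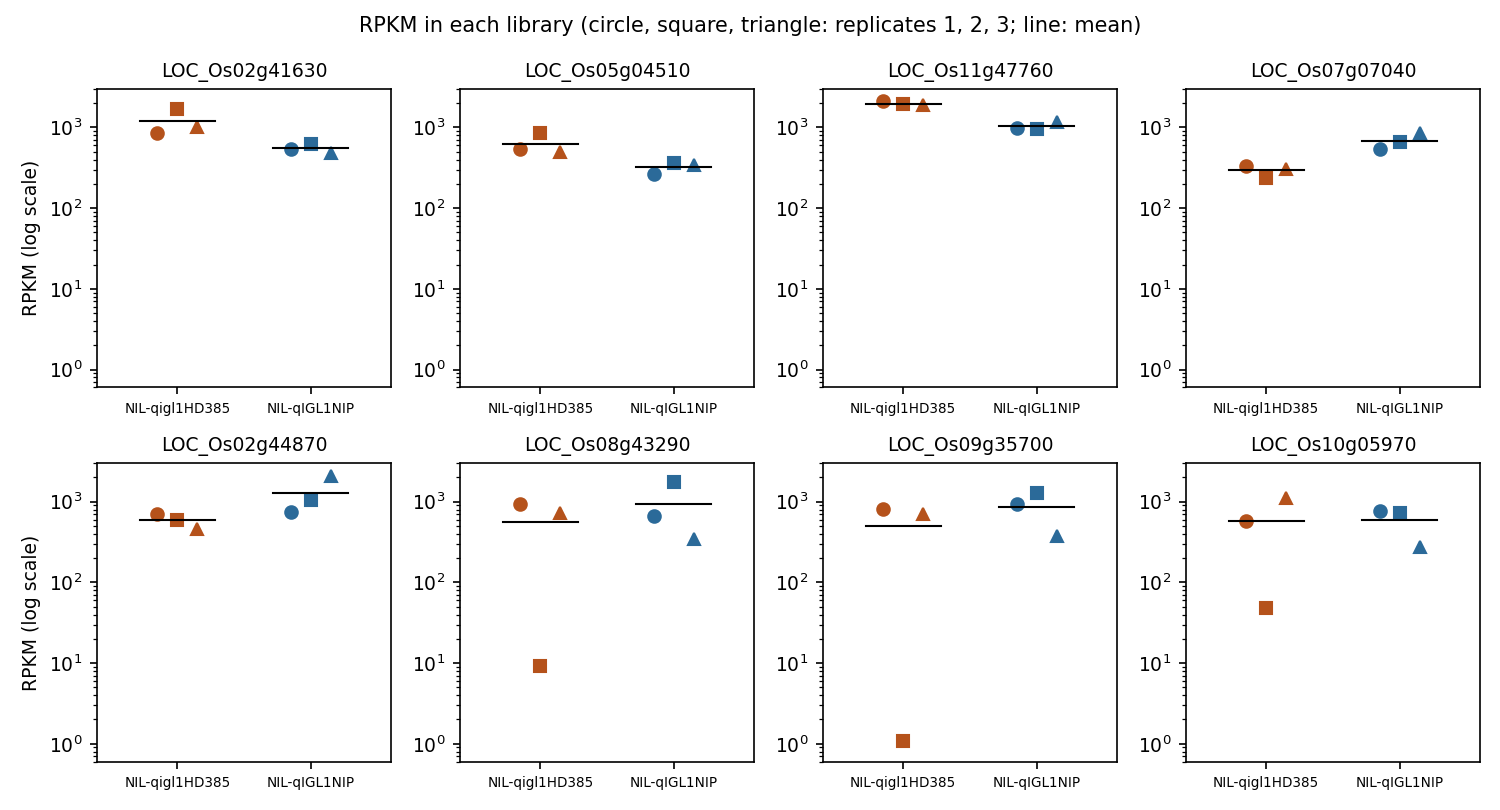
RPKM on a log axis in each library of the 5 loci with the largest separated differences or the smallest adjusted p and of 3 loci with a very low value in 1 library. The line is the mean of 3 libraries; in the last 3 panels the square of NIL-qigl1HD385 replicate 2 lies at 9.32, 1.09 and 47.5 RPKM.

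Variation within lines was compared with that of less abundant loci. The median SD within lines was 0.22 on the log2 scale for the 100 loci, 0.23 for the next 100 loci and 0.20 for all tested loci. It was 0.26 for ranks 1 to 50 and 0.20 for ranks 51 to 100. An SD over 0.5 was found for 8 of the 100, all in ranks 1 to 50, and for 11% of all tested loci. The steadiest loci by the ratio of highest to lowest library, picked after their values were seen, were LOC_Os06g17440 (1.11), LOC_Os09g15775 (1.13) and LOC_Os01g68950 (1.16). LOC_Os01g68950 had 1097, 1107 and 1084 RPKM in NIL-qigl1HD385 and 1208, 1247 and 1253 RPKM in NIL-qIGL1NIP. Its lines did not overlap, yet differed by only -0.17 on the log2 scale (adjusted p = 0.53 in limma).

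The gene models of the 100 loci were shorter than those of other expressed loci. The recovered length had a median of 1224 bases over the 100 and of 1679 bases over all tested loci, and it was under 1000 bases for 34 of the 100. It ranged from 154 bases for LOC_Os06g08320 to 5644 bases for LOC_Os04g52460, both named after the lengths were seen. RPKM divides by this length, so length is part of the measure that chose the loci. Ranked by reads alone, the 100 highest loci shared 51 with this list and had a median length of 2572 bases. The loci found only in the RPKM list had a median length of 916 bases, and those found only in the read list 3750.0 bases. By reads, the 100 loci held 10.6 to 11.8% of a NIL-qigl1HD385 library and 10.5 to 11.2% of a NIL-qIGL1NIP library.

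The 100 loci came from all 12 chromosomes. Chromosome 4 held the most, 16, or 7.97 per 1000 tested loci, chromosome 12 the fewest, 3, or 2.34 per 1000, and chromosome 7 the lowest rate, 2.29 per 1000. Chromosome 5, with 11 loci, and chromosome 11, with 7, held 13.6 and 11.7% of the summed mean RPKM of the list, which includes the first locus and the second. Of the 100, 9 lay within 50 locus numbers of another, in 4 groups. Locus numbers skip values, so a window of 50 locus numbers holds fewer than 50 loci. Counting can share out reads among near-identical neighbours, and no sequence was at hand here to show whether these are copies.

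Neighbours differed in how alike their levels were. LOC_Os10g05970 and LOC_Os10g05990 had close levels in every library except NIL-qigl1HD385 replicate 2, where they had 47.5 and 105 RPKM. LOC_Os10g06000 next to them had 1047, 873 and 1312 RPKM in NIL-qigl1HD385 and 1009.8, 1245 and 772 RPKM in NIL-qIGL1NIP. NIL-qigl1HD385 replicate 2 thus was low by 10-fold or more at the first 2 relative to their highest library, and not at the third. LOC_Os06g04020 had 650.1, 633 and 539 RPKM in NIL-qigl1HD385 and 569, 539 and 786 RPKM in NIL-qIGL1NIP. LOC_Os06g04030 had 619.8, 561 and 607 RPKM in NIL-qigl1HD385 and 619, 577 and 1279 RPKM in NIL-qIGL1NIP. Both were highest in NIL-qIGL1NIP replicate 3, and so were LOC_Os09g30412, with 626, 519 and 468 RPKM in NIL-qigl1HD385 and 469, 457 and 793 RPKM in NIL-qIGL1NIP, and LOC_Os09g30418, with 593, 449.5 and 454 RPKM in NIL-qigl1HD385 and 624, 574 and 1073 RPKM in NIL-qIGL1NIP. In the last group the patterns differed. LOC_Os04g33420 had 515, 415 and 529.6 RPKM in NIL-qigl1HD385 and 690.3, 647 and 521 RPKM in NIL-qIGL1NIP, and was lowest in NIL-qigl1HD385 replicate 2, where LOC_Os04g33450 was highest.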

How the data were processed

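Stranded mRNA libraries were sequenced as paired reads, per the labels' protocols. The authors deposited 1 RPKM value per locus and library. For the authors' processing, Trimmomatic 0.36, featureCounts, Subread 1.5.1 and edgeR 3.12.1 are named, with no role stated, per the submitters' processing notes. Genome build and strand setting: not given in the sources used here, so antisense or overlapping genes may share reads. Members and lists were chosen with earlier results of these data known.

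Low RPKM values are whole multiples of 1 read, which gave back library totals, model lengths (60 to 17000 bases searched) and reads with Python 3.11.15. Each length was the smallest found that made all values of a locus whole reads, within 0.003 plus 2e-08 of the value. That 100% of the values above 0 were whole by this measure was therefore fixed in advance and is no check of the recovery. The totals were chosen so that reads did not exceed them, and reads came to 97.9 to 98.2% of the totals. A recovered length can be a fraction of the true one. The test was limma 3.58.1 in R 4.3.3 on log2(RPKM + 0.5), two-sided, over the 23181 loci whose mean RPKM reached 0.5, Benjamini-Hochberg adjusted. On simulated data for this comparison with 200 of 23181 loci changed, limma called 92.5% of those changed 2-fold and 100% of those changed 4-fold, with 17 false calls. The simulation gave every locus the same dispersion and held no library that stood apart from the others. These rates therefore do not carry over to the measured loci, whose spread differed from locus to locus. Alternatives changed the pseudocount, filter, scaling, variance prior or libraries, or used limma voom on recovered reads. No p is given for the summed share of the members, for which 3 against 3 libraries allow none under 0.1.

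Loci were named by this rule: the first 10 by mean, the 3 loci on each side of the limit, the 2 largest separated differences in each direction, the widest and narrowest range of places, the largest SD within lines, and neighbours within 50 locus numbers. Other names were chosen after values were seen, as stated.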

Additional observations from a re-analysis of the deposited data

How the results depend on the processing

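Of the 100 loci, 0 were called between the lines in 14 of 16 refits, which do not include the count models described below. The exceptions were limma with an untrended variance and limma voom on recovered reads, which called 1 each (1 higher); the cause was not tested. Leaving out each library called 0 each time. Count models on the recovered reads had also been planned. They were tried, and their values are left out because count models were not kept for values deposited as RPKM; voom, a linear model of log values, was kept. In that trial edgeR and voom with TMM scaling called none of the 100 loci. DESeq2 called a larger share of the 100 than of all loci, mostly lower in NIL-qigl1HD385, so the absence of calls depends on the model. The replicate number as a block called 0; the labels give no pairing, and deviations of same-numbered libraries correlated at -0.28, -0.25 and -0.41 across loci. Calls over all loci, 170, were 46 under the block, 94 with a mean RPKM of at least 2 and 84 to 112 with 1 library left out. The median log2 difference of the 100 loci, -0.09, was -0.034 under quantile normalization and -0.12 to -0.06 with 1 library left out. Other rules of choice kept 89 to 99 of the 100 loci, except ranking by recovered reads, which kept 51 and by construction does not divide by length; leaving out a library kept 94 to 98. The difference in share of summed RPKM, 0.50 percentage points, was -0.38 for the 1000 highest loci and -0.020 to 0.84 with 1 library left out, lowest without NIL-qigl1HD385 replicate 2. Without the single highest locus, that difference was -0.029 percentage points. Direction turned for LOC_Os11g06720 under quantile normalization (-0.076), which followed from its place alone, first or second in every library. With 1 library left out, LOC_Os08g43290 ranged from -3.14 to 0.16 and LOC_Os10g05970 from -1.67 to 0.60, positive only without NIL-qigl1HD385 replicate 2. Loci in the own 100 of every library numbered 50 to 61, and separated loci 45 to 58, with 1 library left out; these counts were added after the data had been seen.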
